A study of Mus musculus with 15 samples.

Results

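Axon guidance ligands and receptors were examined in mouse cornea, the transparent front of the eye, which carries a dense sensory innervation. Members were gene symbols of the semaphorin (classes 3 to 7), plexin, neuropilin, ephrin, Eph receptor, Slit, Robo, netrin and Unc5 families, with Dcc and Neo1, that had 10 or more counts in 3 or more of the 15 libraries. Of 73 matching symbols, 52 met that minimum, 27 ligands and 25 receptors, among 15958 of 55357 gene identifiers that met it. The study profiled total RNA of cornea from animals that were heterozygous for Opa1 (OPA1+/-) or carried both normal copies (OPA1+/+). There were 4 libraries of OPA1+/- at 3 months, 4 of OPA1+/+ at 3 months, 4 of OPA1+/- at 6 months and 3 of OPA1+/+ at 6 months. Opa1 encodes a GTPase of the inner mitochondrial membrane, and the series asks how an inherited OPA1 mutation bears on the sensory fibres of the cornea. The labels name no allele, strain, sex, litter or number of animals per library, so p-values measure the spread between these libraries, which may be technical in part.

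Guidance ligands are secreted or sit on cell surfaces, and growing axons read them through receptors that turn the actin cytoskeleton towards or away from the source. Semaphorins signal through plexins, with neuropilins as the ligand-binding partner for most class 3 members. Ephrins are themselves membrane proteins and can signal back into the cell that carries them when an Eph receptor binds. Slits repel axons through Robos, and netrins attract through Dcc or Neo1 and repel through Unc5 receptors. The same proteins act outside the nervous system, in epithelial boundaries, cell adhesion and vessel growth. The cell bodies of corneal sensory neurons lie in the trigeminal ganglion, so RNA of dissected cornea comes mainly from the cells that surround the fibres.

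Libraries held 11673240 to 18194946 counts. Opa1 checked the genotype labels, at 45.5 to 57.8 CPM (counts scaled to a common library total) in the 8 OPA1+/- libraries, against 65.2 to 73.4 CPM in the 7 OPA1+/+ libraries. Its log2 fold change was -0.41 ± 0.06 (adjusted p = 0.0193) at 3 months and -0.53 ± 0.06 (adjusted p = 0.000623) at 6 months. The 3-month call did not hold, with adjusted p of 0.0516 to 0.113, on leaving out OPA1+/- replicate 2, 3 or 4 or OPA1+/+ replicate 1 or 3. Markers of corneal epithelium were all found, and their summed level was 69799 to 82095 CPM. Sensory neuron markers summed to 0.466 to 2.91 CPM, with Scn10a at 0 in every library. Retina markers summed to 169 CPM in OPA1+/- replicate 4 at 3 months and 162 CPM in OPA1+/+ replicate 1 at 6 months, against 12.5 to 27.5 CPM in the other 13 libraries. These libraries also had the highest sensory neuron sums, 2.91 and 2.34 CPM in that order, against 0.466 to 1.39 CPM in the other 13. In bulk tissue, fewer cells of a type and less RNA per cell cannot be told apart.

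Levels between genes were compared as FPKM, CPM per kilobase of exon length. That length counts all annotated exons of a gene, so FPKM is too low where the transcripts present are shorter. Receptors summed to 406 to 449 FPKM per library and ligands to 284 to 308 FPKM. Above 10 FPKM there were 19 members, 18 lay from 1 to 10, 12 from 0.1 to 1 and 3 at or under 0.1.

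Among receptors, plexins held the most RNA, 222 to 242 FPKM per library over 8 of 12 matching genes. Plxnb2, a receptor for class 4 semaphorins, made up 64.8% of that sum, with a mean of 150.0 FPKM (137 to 162 over the libraries). It stood at percentile 99.1 of the 15958 identifiers that met the count minimum. Plxnb1, the receptor for Sema4d, followed among plexins with 47.3 FPKM, and Plxna1 had 19 FPKM. EphA receptors summed to 84.1 to 111 FPKM, of which Epha2, an ephrin-A receptor of epithelia, gave 50.5%. Epha2 averaged 49.6 FPKM and ranged from 39 to 63.9 FPKM, so its range covered that of Plxnb1 (43.3 to 50.5 FPKM) and their order is not fixed. Epha1 (32.6 FPKM) and Epha4 (16 FPKM) came next. Within the EphB receptors, Ephb3 had 32.6 FPKM, Ephb6, a family member without kinase activity, had 13.5 FPKM and Ephb4, the receptor of ephrin-B2, had 11.3 FPKM.

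Receptors of the netrin, Slit and class 3 semaphorin pathways spanned a wide range. Unc5a, a netrin receptor, averaged 19.5 FPKM and made up 74.2% of the Unc5 sum, while Neo1 averaged 9.29 FPKM. Dcc, the best known netrin attraction receptor, had 35 counts in all 15 libraries together and was under the count minimum. Robo1, a Slit receptor, averaged 2.17 FPKM and Robo2 0.0873 FPKM. Nrp1 and Nrp2, the co-receptors of class 3 semaphorins, were nearly level at 2.13 and 2.08 FPKM.

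Among ligands, class 4 semaphorins, which are membrane proteins, held the largest sum, 91 to 104 FPKM, shared by Sema4b (34.1 FPKM), Sema4d (32 FPKM) and Sema4a (25.3 FPKM). Class 3 semaphorins, which are secreted, summed to 46.6 to 54.3 FPKM. Sema3f alone made up 78.1% of the class 3 sum at 39.1 FPKM, against 7.14 FPKM for Sema3c and 0.72 FPKM for Sema3a. Sema3b, whose gene lies 72.3 kb from Sema3f on chromosome 9, had 1.43 FPKM, whereas Efna3 and Efna4, 10.4 kb apart on chromosome 3, had 8.62 and 9.46 FPKM. Ephrins were spread more evenly. Efnb1 had 27.9 FPKM, Efnb2 21 FPKM, Efna5 20.2 FPKM and Efna1 17 FPKM. Ntn4, a netrin of basement membranes, averaged 22.4 FPKM and made up 76% of the netrin sum, ahead of Ntn1 at 6.77 FPKM. Slit3 averaged 3.48 FPKM and Slit2 2.42 FPKM. Slit2 had more reads, 61.7 CPM against 21.1 CPM for Slit3, over 25433 against 6067 exon bases. Their order therefore rests on the exon lengths used. Sema5a had 6.44 FPKM and Sema6d 3.6 FPKM.

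**Figure D1:**
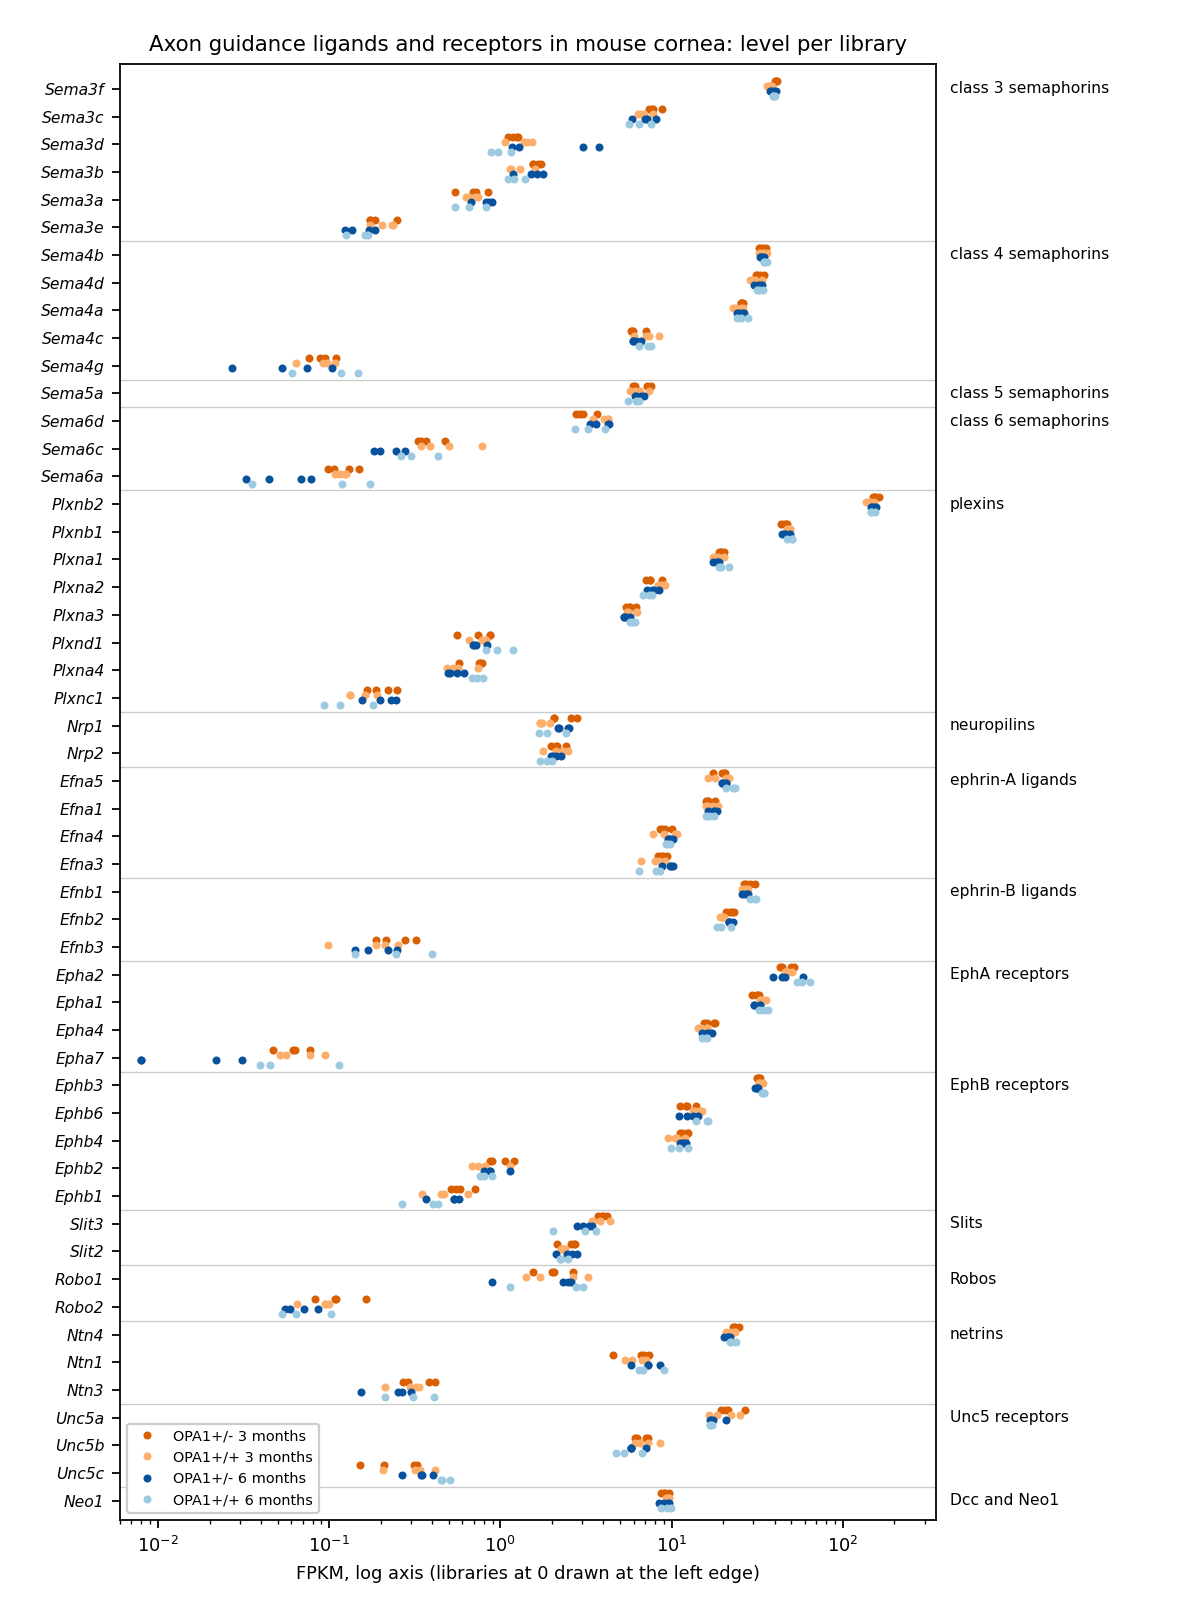
Level of each of the 52 members in the 15 libraries (FPKM, log axis), grouped by family, with libraries at 0 drawn at the left edge. Plxnb2 lies highest at 137 to 162 FPKM, and Epha7, with a mean of 0.052 FPKM, lies lowest.

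The 21 matching symbols under the minimum were Dcc, Efna2, Epha3, Epha5, Epha6, Epha8, Epha10, Ntn5, Plxnb3, Robo3, Robo4, Sema3g, Sema4f, Sema5b, Sema6b, Sema7a, Slit1, Unc5d and the 3 antisense genes Plxna4os1, Plxna4os2 and Plxna4os3. Just inside the minimum, Epha7 reached 10 counts in 4 libraries with 103 counts in all, and Efnb3 in 6 libraries with 143 counts. Just outside it, Epha5 and Sema7a each reached 10 counts in 1 library, with 36 and 56 counts in all. Values of Epha7 and the other scarce members therefore rest on few reads. Exons shared with another gene on the same strand touched 4 members, over at most 1.74% of their exon length.

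At 3 months, no member passed edgeR's quasi-likelihood test of OPA1+/- against OPA1+/+ corneas at an adjusted p of 0.05. Over all 15770 tested genes, 0.00634% passed. At an unadjusted p under 0.05 there were 14 members (26.9%), against 9.03% of all genes. Of these, 8 were higher and 6 lower, beside 5.03% of all genes higher and 3.99% lower. DESeq2 and limma-voom called 0 members. The median log2 fold change was 0.05 over members and 0.003 over all genes, with 30 members positive and 22 negative (from -0.41 to 0.42), and 50.9% of all genes positive. Groups did not overlap for 5 members, against 4.6% of all genes. These were Nrp1, Sema3f and Efnb2, higher in OPA1+/- (2.66% of all genes), and Epha1 and Plxnb1, lower (1.95%).

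Nrp1 had the smallest p. Nrp1 (chr 8, 129085085 to 129229844, plus strand; all positions are GRCm39) had 27.3, 25.3, 20 and 20.2 CPM in the 4 OPA1+/- libraries, against 16.7, 19.1, 17.1 and 16.8 CPM in the 4 OPA1+/+ libraries. All 4 OPA1+/- libraries lay above the highest OPA1+/+ library, and OPA1+/- replicates 1 and 2 stood above the other two. Its log2 fold change was 0.41 ± 0.11 (SE; adjusted p = 0.266), so the difference did not pass.

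Sema3f, a repellent that acts mainly through Nrp2, had 208, 211, 212 and 215 CPM in OPA1+/- libraries at 3 months, against 189, 193, 200.1 and 194 CPM in OPA1+/+ libraries. The groups were tight and separate, with a log2 fold change of 0.12 ± 0.04 (adjusted p = 0.307). Efnb2, the ligand of Ephb4, had 153, 149, 159 and 144 CPM in OPA1+/- libraries, against 139, 134, 137 and 132 CPM in OPA1+/+ libraries. Every OPA1+/- library was again higher, and the log2 fold change of 0.16 ± 0.05 did not pass (adjusted p = 0.361).

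Members that leaned lower at 3 months included receptors of both large families. Plxna2, a plexin that takes class 6 semaphorins and works with neuropilins, had 152, 129, 121 and 129 CPM in OPA1+/- libraries, against 158, 155, 143 and 149 CPM in OPA1+/+ libraries. OPA1+/- replicate 1 lay within the OPA1+/+ range, and the log2 fold change was -0.19 ± 0.06 (adjusted p = 0.394). Ephb6 (chr 6, 41582416 to 41597443, plus strand) had 42.4, 51.9, 45.5 and 46.3 CPM in OPA1+/- libraries, against 57.1, 54.4, 50.3 and 51.5 CPM in OPA1+/+ libraries. OPA1+/- replicate 2 overlapped the OPA1+/+ group, and the log2 fold change was -0.20 ± 0.08 (adjusted p = 0.461), or -0.10 ± 0.09 with the clock genes Arntl and Dbp as covariates. Sema6d, a transmembrane ligand of Plxna1 that gives most class 6 RNA here (88.6% of the FPKM sum), had 30.9, 38.9, 29.1 and 32.2 CPM in OPA1+/- libraries, against 44.8, 42.6, 45 and 36.6 CPM in OPA1+/+ libraries. OPA1+/- replicate 2 and OPA1+/+ replicate 4 overlapped, and the log2 fold change was -0.37 ± 0.13 (adjusted p = 0.421).

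**Figure D2:**
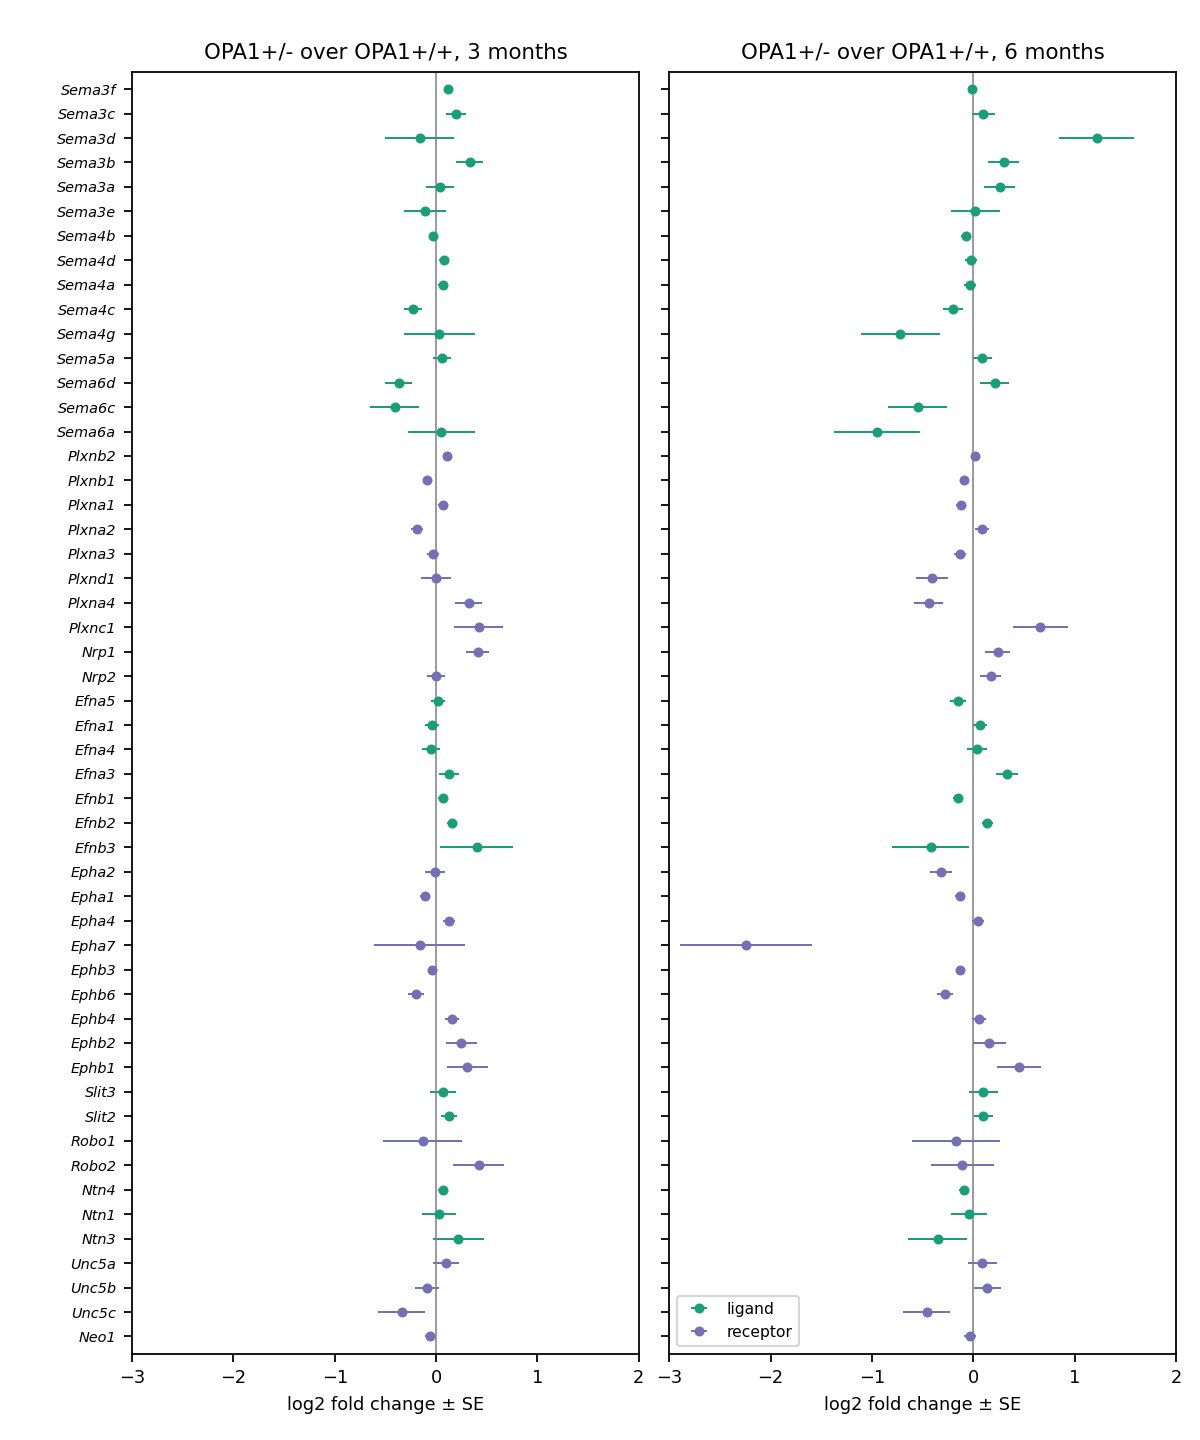
Log2 fold change of OPA1+/- over OPA1+/+ with its SE for each of the 52 members at 3 months and at 6 months, ligands in green and receptors in purple. Most points lie near 0, and the scarce Epha7 (-2.24 at 6 months) and the ligand Sema3d (1.22 at 6 months) lie farthest out.

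At 6 months, no member passed edgeR's quasi-likelihood test either, in a comparison where 0.323% of all genes passed, 51 in number. DESeq2 called 1 member, Ephb3, and limma-voom called 0. At an unadjusted p under 0.05 there were 16 members (30.8%), against 10.2% of all genes. Of these, 4 were higher (4.8% of all genes) and 12 lower (5.43% of all genes). Receptors gave 11 of these, 10 lower and 1 higher (Plxnc1, chosen after its values were seen), and ligands gave 5 of 27. The median log2 fold change was -0.02 over members and 0.002 over all genes. Groups did not overlap for 9 members, against 11.3% of all genes. Efna3 and Sema3d were higher (5.71% of all genes), and Ephb3, Epha7, Plxna4, Efnb1, Plxna3, Unc5c and Ntn4 lower (5.62%), in every OPA1+/- library than in any OPA1+/+ library.

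Ephb3, an ephrin-B receptor (chr 16, 21023505 to 21042055, plus strand), had 212, 209.8, 203 and 209 CPM in OPA1+/- libraries at 6 months, against 231, 229 and 225 CPM in OPA1+/+ libraries. The gap was small beside the level and clear of the spread within groups. Its log2 fold change was -0.13 ± 0.04 (edgeR adjusted p = 0.164). Ephb6 had 41.5, 53.6, 46.3 and 50.1 CPM in OPA1+/- libraries, against 60.9, 61.7 and 52.2 CPM in OPA1+/+ libraries, and OPA1+/+ replicate 3 overlapped. Its log2 fold change was -0.28 ± 0.08 (adjusted p = 0.185). The ligand Efnb1 had 95, 92.4, 89.6 and 96.4 CPM in OPA1+/- libraries, against 98.3, 108 and 106 CPM in OPA1+/+ libraries. The groups were separate by a narrow margin, with a log2 fold change of -0.15 ± 0.05 (adjusted p = 0.28).

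Epha2 had 272, 216, 182 and 207 CPM in OPA1+/- libraries at 6 months, against 252, 299 and 270.5 CPM in OPA1+/+ libraries. OPA1+/- replicate 1 lay inside the OPA1+/+ range. The log2 fold change was -0.32 ± 0.11 (adjusted p = 0.309) with all libraries and -0.45 (adjusted p = 0.0349) without that replicate. The OPA1+/+ corneas at 6 months also stood apart in the clock gene Arntl, at 39.5 to 54.3 CPM against 10.2 to 26.6 CPM in the other 12 libraries. With Arntl and Dbp as covariates the Epha2 value was 0.22 ± 0.19. The same covariates gave -0.06 ± 0.09 for Ephb3, -0.07 ± 0.18 for Ephb6 and -0.14 ± 0.28 for Plxna4, each nearer to 0 than without covariates. They gave 0.09 ± 0.23 for Efna3 and 0.75 ± 0.91 for Sema3d. The values of Efnb1 (-0.14 ± 0.13) and Epha7 (-2.18 ± 1.34) hardly moved, while Efnb2 (0.21 ± 0.12) and Nrp1 (0.45 ± 0.27) moved away from 0. Errors were larger for all of these members, also for Efnb1 (0.05 without covariates) and Epha7 (0.65 without covariates). Dbp itself differed by genotype at 6 months (log2 fold change 0.85 ± 0.12, adjusted p = 0.0155), so these covariates overlap with genotype.

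Efna3, a ligand anchored to the membrane by a lipid, had 24.1, 23.8, 24.9 and 21.3 CPM in OPA1+/- libraries at 6 months, against 19.7, 15.8 and 20.9 CPM in OPA1+/+ libraries. Its neighbour Efna4, 10.4 kb away on chromosome 3, had 15.1 to 16.3 CPM in OPA1+/- libraries, against 14.9 to 15.7 CPM in OPA1+/+ libraries. Efna3 thus separated the groups and Efna4 did not. The log2 fold change of Efna3 was 0.33 ± 0.11 (adjusted p = 0.225), and 0.21 ± 0.11 without OPA1+/+ replicate 2.

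Sema3d, a secreted semaphorin, had 26, 11, 32.6 and 10.1 CPM in OPA1+/- libraries at 6 months, against 8.29, 9.85 and 7.62 CPM in OPA1+/+ libraries. OPA1+/- replicates 1 and 3 carried the difference, while replicates 2 and 4 lay just above the OPA1+/+ libraries and within the 9.07 to 13.1 CPM of the 8 libraries at 3 months. The log2 fold change was 1.22 ± 0.37 (adjusted p = 0.242), and 0.87 without OPA1+/- replicate 3. The ratio of its highest to its lowest library, 4.28, exceeded that of Robo1, 3.63.

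Plxna4, a plexin that conveys class 3 semaphorin signals in sensory axons, had 8.59, 7, 7.83 and 7.12 CPM in OPA1+/- libraries at 6 months, against 11.2, 10.3 and 9.56 CPM in OPA1+/+ libraries. At 3 months it had 10.6, 8.11, 11 and 10.8 CPM in OPA1+/- libraries, against 10.4, 7.4, 6.84 and 7.92 CPM in OPA1+/+ libraries. OPA1+/- libraries were thus lower at 6 months and mostly higher at 3 months. The log2 fold change was -0.44 ± 0.14 (adjusted p = 0.217) at 6 months and 0.32 ± 0.13 (adjusted p = 0.475) at 3 months. Epha7 was close to its detection limit, with 0, 0.307, 0.215 and 0 CPM in OPA1+/- libraries at 6 months, against 1.13, 0.448 and 0.389 CPM in OPA1+/+ libraries. These come from 7 counts over the 4 OPA1+/- libraries and 26 counts over the 3 OPA1+/+ libraries, and a count of 0 allows up to 3 counts. The fitted log2 fold change of -2.24 ± 0.65 (adjusted p = 0.172) depends on the prior count. OPA1+/+ replicate 1, a library with high retina markers, gave 15 of the 26 counts. Without the 2 libraries with high retina markers the Epha7 log2 fold change was -1.60 ± 0.76 (adjusted p = 0.549).

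**Figure D3:**
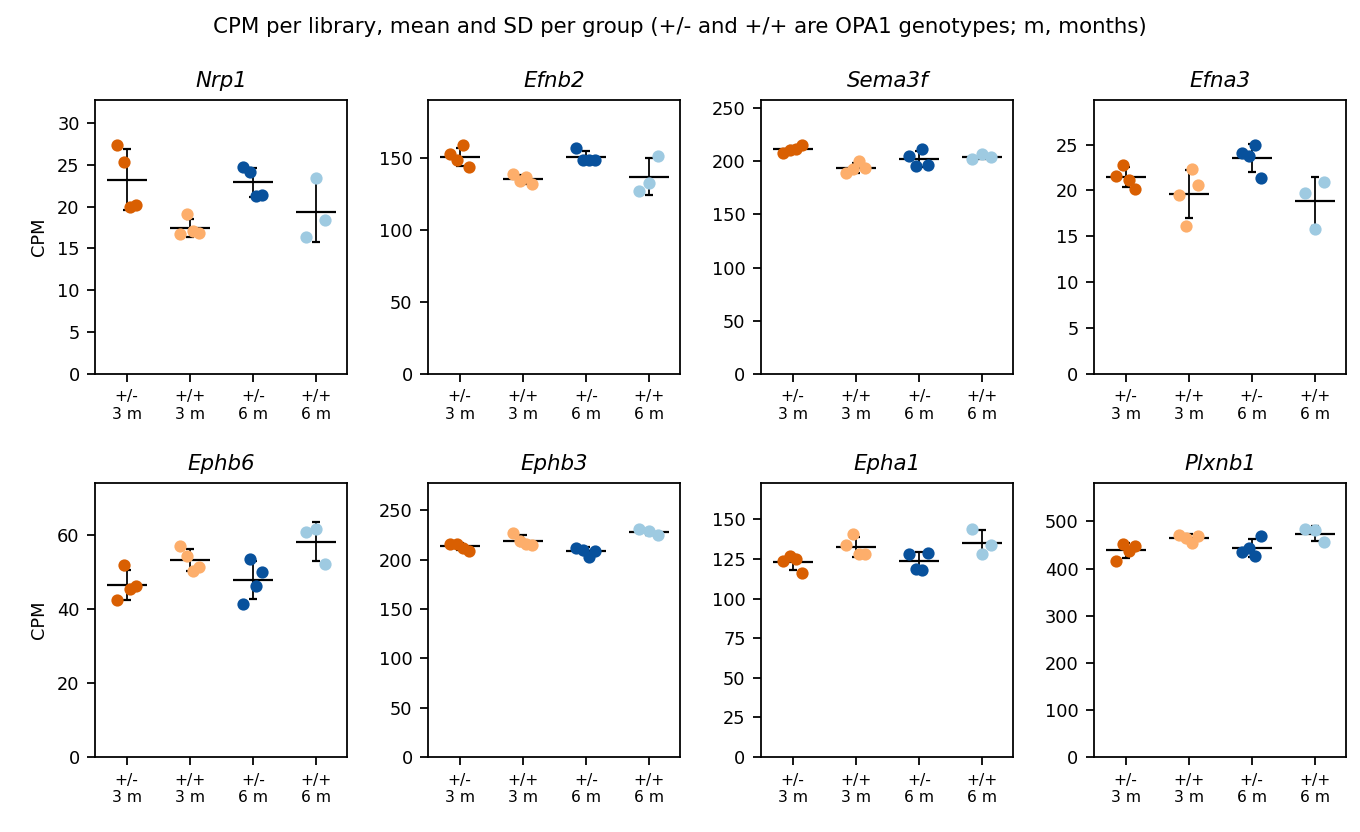
CPM of Nrp1, Efnb2, Sema3f, Efna3, Ephb6, Ephb3, Epha1 and Plxnb1 in each library of the 4 groups, with group means and SD. At 3 months Nrp1 in OPA1+/- libraries (20 to 27.3 CPM) lies above OPA1+/+ libraries (16.7 to 19.1 CPM), and at 6 months Ephb3 in OPA1+/- libraries (203 to 212 CPM) lies below OPA1+/+ libraries (225 to 231 CPM).

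Averaged over both ages, no member passed edgeR's quasi-likelihood test, where 0.793% of all genes passed, 125 in number. Ephb6, Efnb2 and Nrp1 came closest. At an unadjusted p under 0.05 there were 18 members (34.6%), against 12.4% of all genes. Among them 9 were higher and 9 lower, where the background was 6.54% and 5.88%, and 13 of the 18 were receptors. DESeq2 called 4 members (Efnb2, Ephb3, Ephb6 and Nrp1) and limma-voom called 2 (Efnb2 and Ephb6). The 8 OPA1+/- and 7 OPA1+/+ libraries overlapped for all 52 members. Only 0.178% of all genes showed no overlap, so the members were near the background here.

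Ephb6 averaged 46.5 ± 3.97 CPM for OPA1+/- and 53.3 ± 3.07 CPM for OPA1+/+ at 3 months (SD, n = 4 each). At 6 months it averaged 47.8 ± 5.18 CPM for OPA1+/- (n = 4) and 58.3 ± 5.3 CPM for OPA1+/+ (n = 3). The gap was of like size at both ages, and the averaged log2 fold change was -0.24 ± 0.06 (adjusted p = 0.0542). Without the 2 libraries with high retina markers the adjusted p was 0.197 at a log2 fold change of -0.23, and over all settings tried it ran from 0.00216 to 1. With Arntl and Dbp as covariates the averaged value was -0.09 ± 0.11. Without any 1 of OPA1+/- replicate 2 or OPA1+/+ replicate 3 or 4 at 3 months, or OPA1+/- replicate 2 or OPA1+/+ replicate 3 at 6 months, it passed, with adjusted p of 0.0298 to 0.0447.

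Efnb2 (chr 8, 8667434 to 8711242, minus strand) averaged 151 ± 6.34 CPM in OPA1+/- and 136 ± 3.17 CPM in OPA1+/+ at 3 months, and at 6 months 151 ± 4.15 CPM in OPA1+/- and 137 ± 13.1 CPM in OPA1+/+. At 6 months OPA1+/+ replicate 3, at 152 CPM, reached the OPA1+/- range of 149 to 157 CPM. The averaged log2 fold change was 0.15 ± 0.04 (adjusted p = 0.0653), and 0.19 (adjusted p = 0.017) without that replicate. Without the 2 libraries with high retina markers it was 0.13 ± 0.04 (adjusted p = 0.204). At 6 months Efnb2 then had a log2 fold change of 0.08 ± 0.06 (adjusted p = 0.755), against 0.14 ± 0.05 with all libraries. Its receptor Ephb4 had 52 to 57.8 CPM in the 8 OPA1+/- libraries, against 44 to 57.8 CPM in the 7 OPA1+/+ libraries, so the groups overlapped.

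Nrp1 averaged 23.2 ± 3.65 CPM in OPA1+/- and 17.4 ± 1.12 CPM in OPA1+/+ at 3 months, and at 6 months 22.9 ± 1.79 CPM in OPA1+/- and 19.4 ± 3.61 CPM in OPA1+/+. OPA1+/+ replicate 2 at 6 months, at 23.4 CPM, lay among the OPA1+/- libraries. The averaged log2 fold change was 0.32 ± 0.08 (adjusted p = 0.0752), and 0.49 ± 0.17 with Arntl and Dbp as covariates. Without the 2 libraries with high retina markers it was 0.30 ± 0.08 (adjusted p = 0.163). At 6 months alone Nrp1 gave 0.24 ± 0.12 (adjusted p = 0.533), and 0.13 ± 0.12 without those libraries. Leaving out OPA1+/+ replicate 1 or 2 at 6 months gave 0.13 ± 0.13 or 0.39 ± 0.12 at that age. The other neuropilin, Nrp2, had 23.3 to 28.5 CPM in the OPA1+/- libraries, against 20.3 to 29.3 CPM in the OPA1+/+ libraries, and the ranges overlapped.

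Beside these, the summed level of lymphatic endothelial markers was 90.5 to 102 CPM for OPA1+/- against 68.1 to 88 CPM for OPA1+/+ at 3 months, and 90.8 to 95.4 CPM for OPA1+/- against 69.8 to 85.7 CPM for OPA1+/+ at 6 months. Pdpn, which other cells also carry, made up 96.8% of that sum. The remaining markers overlapped, at 2.06 to 3.79 CPM for OPA1+/- against 2.47 to 4.14 CPM for OPA1+/+ at 3 months, and 0.904 to 3.05 CPM for OPA1+/- against 1.79 to 4.22 CPM for OPA1+/+ at 6 months. Nrp1 and Efnb2 are also vessel genes, and vascular endothelial markers summed to 15.4 to 18.4 CPM for OPA1+/- against 16.4 to 21.6 CPM for OPA1+/+ at 3 months, and 10.3 to 12.6 CPM for OPA1+/- against 9.33 to 20.4 CPM for OPA1+/+ at 6 months. Schwann cell markers summed to 442 to 495 CPM for OPA1+/- against 508 to 522 CPM for OPA1+/+ at 6 months. Erbb3 was 62.4% of the sum, and the rest overlapped at 161 to 210.2 CPM for OPA1+/- against 170.5 to 212 CPM for OPA1+/+. At 3 months the sums overlapped, at 502 to 541 CPM for OPA1+/- against 497 to 577 CPM for OPA1+/+. Only 5 of the 10 Schwann cell markers had enough counts to be tested, and Sox10 had 0 to 0.765 CPM. The part of these cells in the results was not tested.

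Epha1 and Plxnb1 showed small differences of the same sign at both ages. Epha1 had 124, 127, 125 and 116 CPM in OPA1+/- libraries, against 134, 141, 128 and 128 CPM in OPA1+/+ libraries at 3 months. At 6 months it had 128, 119, 118 and 129 CPM in OPA1+/- libraries, against 144, 128 and 134 CPM in OPA1+/+ libraries. The groups touched at 6 months, and the averaged log2 fold change was -0.12 ± 0.04 (adjusted p = 0.129). Plxnb1 had 416 to 452 CPM in OPA1+/- libraries, against 454 to 472 CPM in OPA1+/+ libraries at 3 months. At 6 months it had 426 to 469 CPM in OPA1+/- libraries, against 456 to 484 CPM in OPA1+/+ libraries, with OPA1+/- replicate 4 inside the OPA1+/+ range. Its ligand Sema4d gave 238 to 265 CPM in OPA1+/- libraries, against 221 to 260.0 CPM in OPA1+/+ libraries at 3 months, and the groups overlapped. Sema4c, a ligand of Plxnb2, had 26.6, 26.8, 27.2 and 32.6 CPM in OPA1+/- libraries, against 38.7, 33.7, 27.8 and 32.7 CPM in OPA1+/+ libraries at 3 months. The groups overlapped through OPA1+/- replicate 4 and OPA1+/+ replicate 3. Its averaged log2 fold change was -0.21 ± 0.07 (adjusted p = 0.142), and -0.25 (adjusted p = 0.0453) without OPA1+/+ replicate 3 at 3 months. With Arntl and Dbp as covariates it was -0.03 ± 0.13.

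Between the ages, 30 of 52 members (57.7%) had the same sign of genotype difference, against 54% of all genes. Efnb2, Epha1, Ephb6, Plxna4 and Plxnb1 had an unadjusted p under 0.05 at both ages, and Plxna4 alone among these 5 had opposite signs. The test of the difference between ages, the interaction of genotype and age, passed for 0 members and for 0% of all genes. DESeq2 and limma-voom also called 0 members. At an unadjusted p under 0.05 there were 9 members (17.3%), against 6.91% of all genes. They comprised 3 positive (3.01% of all genes) and 6 negative (3.91%). Plxna4 had the smallest p, with an interaction of -0.75 ± 0.19 in log2 (adjusted p = 0.334), and -0.41 ± 0.26 with Arntl and Dbp as covariates. Efnb1 (-0.23 ± 0.07, adjusted p = 0.513) and Plxna2 (0.28 ± 0.09, adjusted p = 0.52) followed. For Sema6d the interaction was 0.58 ± 0.19 (adjusted p = 0.531). At 6 months Sema6d had 35.3, 45.7, 38.2 and 45 CPM in OPA1+/- libraries, against 43.3, 34.3 and 28.6 CPM in OPA1+/+ libraries, an order unlike that at 3 months.

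With age in OPA1+/+ corneas, no member passed edgeR's quasi-likelihood test, where 0.0507% of all genes passed. DESeq2 called 1, Plxna2, and limma-voom called 0. At an unadjusted p under 0.05 there were 11 members (21.2%), against 10.2% of all genes. They were 6 higher at 6 months (5.32% of all genes) and 5 lower (4.84%). Groups did not overlap for 6 members, against 8.14% of all genes. Efnb1, Epha2, Unc5c and Sema3f were higher at 6 months (4.44% of all genes), and Plxna2 and Sema3e lower (3.7%). Plxna2 had the smallest p, with 127, 131 and 117 CPM at 6 months, against 158, 155, 143 and 149 CPM at 3 months. The ages were well apart, and the log2 fold change was -0.27 ± 0.07 (edgeR adjusted p = 0.141). Efnb1 had 98.3, 108 and 106 CPM at 6 months, against 88.2, 95.9, 92.6 and 93.6 CPM at 3 months, a separate but small difference (log2 fold change 0.17 ± 0.05, adjusted p = 0.257).

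Epha2 in OPA1+/+ had 252, 299 and 270.5 CPM at 6 months, against 223, 218, 236 and 213 CPM at 3 months (log2 fold change 0.30 ± 0.11, adjusted p = 0.361). Efna5, an ephrin-A, had 84, 95.1 and 92 CPM at 6 months, against 87.7, 83.8, 72.5 and 65.9 CPM at 3 months (log2 fold change 0.22 ± 0.08, adjusted p = 0.326). Epha2 separated the ages and Efna5 did not. With Arntl and Dbp as covariates both took a negative sign, at -0.12 ± 0.16 for Epha2 and -0.12 ± 0.11 for Efna5. Unc5b, a netrin receptor also found on vessels, had 42, 29.6 and 32.8 CPM at 6 months, against 41, 38.2, 45.5 and 53.7 CPM at 3 months. Its log2 fold change of -0.36 ± 0.13 (adjusted p = 0.348) was 0.26 ± 0.15 with those covariates. Without the 2 libraries with high retina markers it was -0.52 ± 0.13 (adjusted p = 0.074). Arntl in OPA1+/+ had 39.5 to 54.3 CPM at 6 months, against 12.1 to 24.6 CPM at 3 months. These covariates therefore overlap with age in OPA1+/+.

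With age in OPA1+/- corneas, no member passed edgeR's quasi-likelihood test, where 0.0824% of all genes passed. DESeq2 and limma-voom called 0 members. At an unadjusted p under 0.05 there were 10 members (19.2%), against 9.05% of all genes. They were 2 higher at 6 months (4.08% of all genes) and 8 lower (4.97%). Groups did not overlap for 6 members, all lower at 6 months (Epha7, Ntn4, Sema6a, Sema6c, Slit3 and Plxna1), against 6.04% of all genes, 2.9% higher and 3.14% lower. The median log2 fold change was -0.04 over members, with 16 positive and 36 negative, and 49.8% of all genes positive. The OPA1+/- libraries at 3 months serve in this comparison and in that of genotype at 3 months, so their values are not independent. The same holds for every other group, since each serves in both a genotype and an age comparison. Efnb1 and Epha2 thus draw on the same OPA1+/+ libraries at 6 months in both, and Plxna2 on the same OPA1+/+ libraries at 3 months. Vascular endothelial markers in OPA1+/- summed to 10.3 to 12.6 CPM at 6 months, against 15.4 to 18.4 CPM at 3 months, and Schwann cell markers to 442 to 495 CPM at 6 months, against 502 to 541 CPM at 3 months. Without the leading genes Kdr and Erbb3 the sums overlapped, at 2.56 to 4.85 CPM at 6 months against 3.73 to 6.9 CPM at 3 months for vascular markers, and 161 to 210.2 CPM at 6 months against 190.1 to 225 CPM at 3 months for Schwann cell markers. Their part in the results was not tested.

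Ntn4 in OPA1+/- had 79.9, 75.3, 81.6 and 80 CPM at 6 months, against 92.2, 86.1, 87.6 and 84.9 CPM at 3 months. Each 6-month library was lower, with a log2 fold change of -0.15 ± 0.05 (adjusted p = 0.335). Robo2 had 1.2, 1.46, 1.01 and 0.938 CPM at 6 months, against 1.86, 1.84, 1.41 and 2.8 CPM at 3 months. Its highest value came from OPA1+/- replicate 4 at 3 months, a library with high retina markers. The log2 fold change was -0.80 ± 0.26 (adjusted p = 0.334), and -0.56 without the 2 such libraries. Sema6a, a transmembrane semaphorin read by Plxna2 and Plxna4, had 0.602, 0.692, 0.287 and 0.391 CPM at 6 months, against 0.863, 1.15, 0.94 and 1.32 CPM at 3 months. It was lower in each 6-month library, at about 1 CPM or less, with a log2 fold change of -1.12 ± 0.38 (adjusted p = 0.355).

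Plxna4 in OPA1+/- had 8.59, 7, 7.83 and 7.12 CPM at 6 months, against 10.6, 8.11, 11 and 10.8 CPM at 3 months (log2 fold change -0.41 ± 0.13, adjusted p = 0.325). The ages overlapped through replicate 2 at 3 months. Epha7 summed to 7 counts at 6 months, against 36 counts at 3 months (fitted log2 fold change -2.13 ± 0.61, adjusted p = 0.244). Sema3d, by contrast, gave 0.95 ± 0.33 (adjusted p = 0.418), again through the same 2 libraries at 6 months, and 0.60 ± 0.28 without replicate 3 at 6 months.

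Slit3, a secreted repellent, had 18.5, 20.7, 20 and 17 CPM at 6 months in OPA1+/-, against 22.6, 23.9, 25.3 and 24 CPM at 3 months. In OPA1+/+ it had 21.9, 18.9 and 12.3 CPM at 6 months, against 23.2, 21.2, 20.7 and 26.5 CPM at 3 months. The sign was the same in both genotypes, with log2 fold changes of -0.33 ± 0.13 in OPA1+/- (adjusted p = 0.448) and -0.37 ± 0.14 in OPA1+/+ (adjusted p = 0.361). The OPA1+/+ value was -0.16 ± 0.11 without replicate 3 at 6 months, the library at 12.3 CPM. It was -0.55 ± 0.14 (adjusted p = 0.0789) without the 2 libraries with high retina markers. Stromal keratocyte markers moved with Slit3, summing in OPA1+/- to 1978 to 2525 CPM at 6 months, against 2756 to 3168 CPM at 3 months, and in OPA1+/+ to 1965 to 2506 CPM at 6 months, against 2354 to 3224 CPM at 3 months. All 10 of these markers were found in every library, and their part in the result was not tested.

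Robo1, the more abundant Slit receptor, varied widely between libraries of the same group. It had 25.5, 44.1, 33.9 and 33.1 CPM in OPA1+/- and 53.7, 43.5, 23.4 and 28.3 CPM in OPA1+/+ at 3 months. At 6 months it had 38.5, 41.1, 14.8 and 42.5 CPM in OPA1+/- and 50.3, 45.7 and 18.7 CPM in OPA1+/+. Each group held libraries from the low and the high part of the range, so no comparison separated them.

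**Figure D4:**
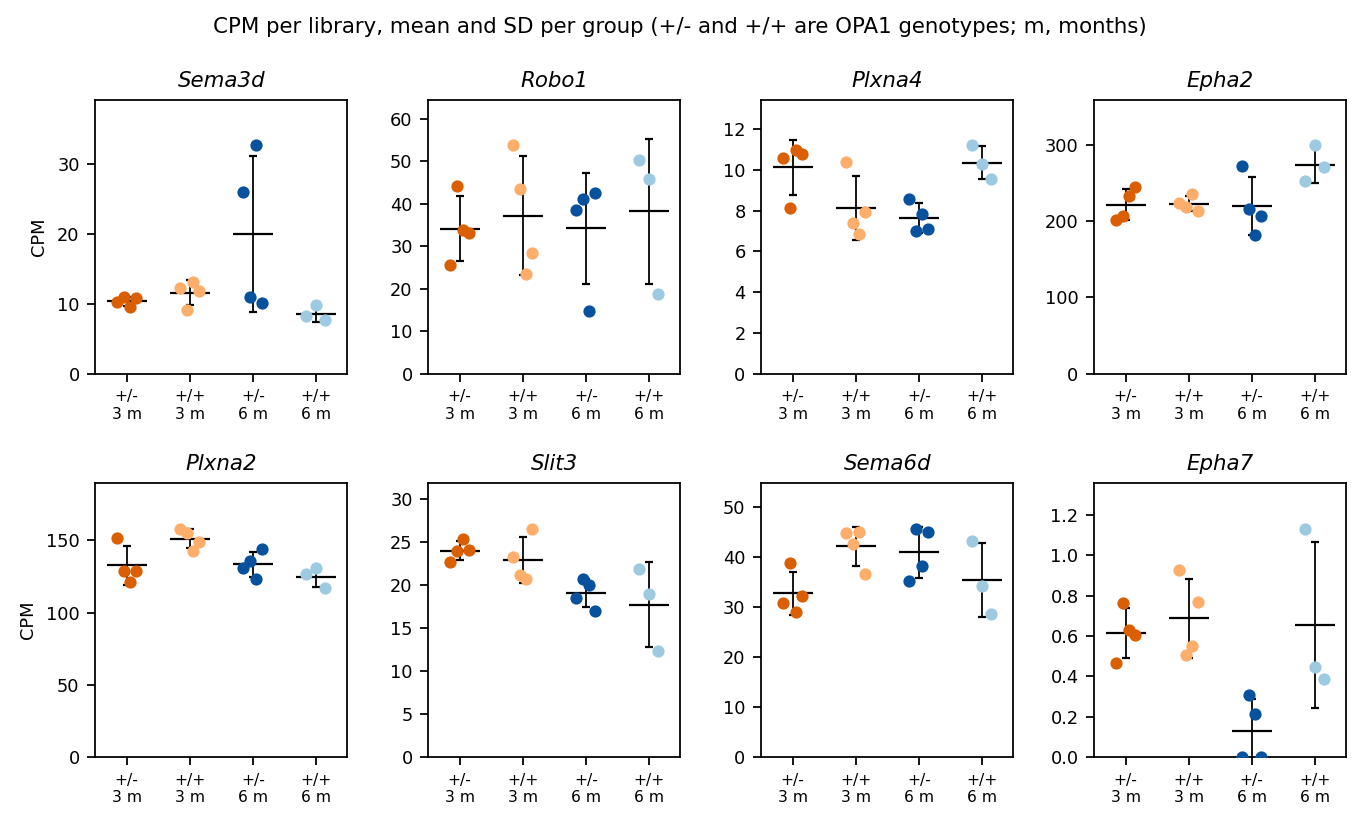
CPM of Sema3d, Robo1, Plxna4, Epha2, Plxna2, Slit3, Sema6d and Epha7 in each library of the 4 groups, with group means and SD. Sema3d stands out in 2 OPA1+/- libraries at 6 months (26 and 32.6 CPM), and Robo1 spans 14.8 to 53.7 CPM with high and low libraries in every group.

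Other genes of the guidance pathways were read from 3 lists, of extracellular and co-receptor proteins, of cytoplasmic effectors, and of proteases and heparan sulfate enzymes. With genotype at 3 months, 0 genes of these lists passed edgeR's test, with 3 of 24 extracellular genes, 8 of 46 effectors and 1 of 18 proteases and enzymes at an unadjusted p under 0.05, beside 9.03% of all genes. Of 24 tested genes of the extracellular list, 1 rose and 1 fell with genotype at 6 months and again in the average over ages. Vldlr, a reelin receptor, rose to 13.1 ± 2.35 CPM in OPA1+/- at 6 months, against 6.64 ± 1.27 CPM in OPA1+/+ (0.98 ± 0.16 in log2, adjusted p = 0.0155). Gpc1, a heparan sulfate proteoglycan that binds Slits, fell to 50.1 ± 3.71 CPM in OPA1+/-, against 64.5 ± 0.717 CPM in OPA1+/+ (-0.37 ± 0.06 in log2, adjusted p = 0.0155). The averaged log2 fold changes were 0.59 ± 0.11 for Vldlr (adjusted p = 0.0223) and -0.26 ± 0.04 for Gpc1 (adjusted p = 0.00984). At 6 months the Gpc1 call did not hold without OPA1+/- replicate 3 or OPA1+/+ replicate 1 or 2 (adjusted p of 0.0602 to 0.113), and the Vldlr call without OPA1+/+ replicate 2 (0.135). The averaged Vldlr call did not hold without OPA1+/- replicate 1 at either age or OPA1+/+ replicate 2 at 6 months (0.0505 to 0.0753).

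Of 18 tested proteases and heparan sulfate enzymes, 0 rose and 1 fell with genotype at 6 months. Adam17, a sheddase that cleaves membrane proteins, fell to 94.8 ± 5.91 CPM in OPA1+/-, against 117 ± 3.09 CPM in OPA1+/+ (-0.31 ± 0.06 in log2, adjusted p = 0.0261), and its averaged log2 fold change was -0.20 ± 0.04 (adjusted p = 0.0262). The 6-month call did not hold without OPA1+/- replicate 2 or 3 or OPA1+/+ replicate 1 or 2 (adjusted p of 0.0885 to 0.164), and the averaged call without OPA1+/- replicate 1 or OPA1+/+ replicate 2 at 3 months, or OPA1+/- replicate 3 or OPA1+/+ replicate 1 or 2 at 6 months (0.0506 to 0.0753). Of 46 tested effectors, 0 passed at 6 months, with 5 at an unadjusted p under 0.05, near the 10.2% of all genes. Srgap2, of a protein group known for binding Robo1, fell in the average over ages (log2 fold change -0.24 ± 0.04, adjusted p = 0.0165). It averaged 165 ± 7.36 CPM in OPA1+/- against 189 ± 12 CPM in OPA1+/+ at 3 months, and 163 ± 12 CPM in OPA1+/- against 199 ± 15.3 CPM in OPA1+/+ at 6 months. Without OPA1+/+ replicate 2 at 6 months its adjusted p was 0.0573. Without the 2 libraries with high retina markers, the averaged calls of Vldlr, Gpc1, Adam17 and Srgap2 were lost, with adjusted p of 0.0514 to 0.0878. Their log2 fold changes stayed as large, at 0.63, -0.25, -0.21 and -0.23 in that order, with 2 fewer libraries in the fit. At 6 months the adjusted p without them was 0.0713 for Gpc1 and 0.108 for Adam17. With Arntl and Dbp as covariates, the adjusted p of each 6-month and averaged call given here was 1. The log2 fold changes were then -0.10 at 6 months and -0.09 averaged for Adam17, nearer to 0. They were about as large as before for Gpc1 (-0.36 and -0.26), for Vldlr (1.04 and 0.63) and for Srgap2 averaged (-0.24). Opa1 itself lost its calls with these covariates, at -0.61 ± 0.15 at 6 months and -0.42 ± 0.08 (adjusted p = 0.156) at 3 months. Dbp differed by genotype at 6 months, so a call lost under these covariates cannot be told apart from that overlap.

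With age in OPA1+/-, Vldlr rose to 13.1 ± 2.35 CPM at 6 months, against 7.34 ± 0.893 CPM at 3 months (log2 fold change 0.83 ± 0.15, adjusted p = 0.0427). The matrix metalloproteinase Mmp2 and its activator Mmp14 fell. Mmp2 averaged 23.6 ± 4.06 CPM at 6 months, against 36.6 ± 3.76 CPM at 3 months (log2 fold change -0.63 ± 0.11, adjusted p = 0.0427). Mmp14 averaged 131 ± 2.57 CPM at 6 months, against 160.2 ± 3.84 CPM at 3 months (log2 fold change -0.29 ± 0.05, adjusted p = 0.0427). The Mmp14 call did not hold without any 1 of the 8 OPA1+/- libraries, and the Vldlr and Mmp2 calls without any 1 of them other than replicate 3 at 6 months. All 3 were also lost without OPA1+/+ replicate 1 at 3 months, and Mmp2 without OPA1+/+ replicate 2 at 6 months, with adjusted p of 0.0539 to 0.166 over these. With a replicate block the adjusted p was 0.0769 for Mmp14, 0.105 for Mmp2 and 0.0692 for Vldlr. With Arntl and Dbp as covariates it was 0.0695, 0.0585 and 0.0752 in that order. Without the 2 libraries with high retina markers the Mmp14 call held (0.0119), and those of Mmp2 (0.08) and Vldlr (0.0679) did not. The keratocyte sums given above were lower at 6 months beside Mmp2 and Mmp14, and the part of keratocytes was not tested. With age in OPA1+/+, 0 genes of the 3 lists passed edgeR's test, with 5 extracellular genes, 7 effectors and 4 proteases and enzymes at an unadjusted p under 0.05, beside 10.2% of all genes.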

How the data were processed

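Total RNA of 15 mouse cornea libraries was extracted, depleted of ribosomal RNA and sequenced as single reads of strand-specific libraries, per the labels' protocols. The authors deposited integer counts of reads for each gene, made with featureCounts 2.0.1 on exons, reverse strand setting 2, with the GENCODE mouse release M28 annotation, per the file headers. The submitters' processing notes name mm10 and DESeq2. Release M28 is on GRCm39, and 2.8% of the 52044 identifiers shared with release M21 (GRCm38) have the same start and end, so coordinates were read as GRCm39. Which aligner was used is not stated in the sources at hand.

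Symbols from a table of identifiers matched 52081 of 55357 identifiers (94.1%). Genes were kept by filterByExpr, which left 15770 genes, all 52 members included, holding 99.8% to 99.9% of the counts. The test was the quasi-likelihood test of edgeR 4.0.16 under R 4.3.3, with robust fitting, TMM factors of 0.986 to 1.02 and a mean for each group over the 15 libraries. It had 11 residual degrees of freedom, and the biological coefficient of variation was 0.0884. Adjusted p-values are Benjamini-Hochberg values over the 15770 genes, called under 0.05, and errors of log2 fold changes are SE. Genotype differences are OPA1+/- over OPA1+/+, and age differences 6 months over 3 months. CPM are counts over the TMM-adjusted total of tested genes, and FPKM divide CPM by exon length in kilobases. No pair of libraries had identical counts. The protocols describe no molecular identifiers, so a limit from 0 counts (3 counts) covers counting error alone.

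The alternatives were DESeq2 1.42.0, its size factors, limma-voom (limma 3.58.1), other filters, the compared groups alone, a replicate block, and each library left out. Leaving out the libraries with retina markers, and adding Arntl and Dbp as covariates, were chosen after seeing the data. The members and gene lists were chosen with earlier results of these data known. Named were Opa1, the 5 members with the smallest p in each comparison, up to 3 of the highest FPKM per family, and genes of the pathway lists that passed, and further members were named after their values were seen. The fitting scripts were tested on simulated data.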

Additional observations from a re-analysis of the deposited data

Results flagged for a closer look

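Among 156 sets of 4 libraries of 1 group, 1 library stood far from the other 3 in 5 cases, and chance flags about 1 in 20 such sets (7.8 of 156). Efnb2 had 157 CPM in OPA1+/- replicate 1 at 6 months, against 149 CPM in each of the others. Plxna4 had 8.11 CPM in OPA1+/- replicate 2 at 3 months, against 10.6 to 11 CPM. Sema4c had 32.6 CPM in OPA1+/- replicate 4 at 3 months, a library with high retina markers, against 26.6 to 27.2 CPM. In OPA1+/- replicate 3 at 6 months, Robo1 had 14.8 CPM against 38.5 to 42.5 CPM, and Unc5b had 44.4 CPM against 36.3 to 36.5 CPM. The same library had the highest Sema3d value, 32.6 CPM.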

How the results depend on the processing

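Over 24 alternative settings, the 41 named fold changes of members gave 969 values, of which 939 kept their sign and their side of the threshold, 26 gained a call and 4 took the other sign. Those 4 all came from the Arntl and Dbp covariates. The log2 fold change was 0.22 ± 0.19 for Epha2 with genotype at 6 months. For age in OPA1+/+ it was -0.12 ± 0.11 for Efna5, -0.12 ± 0.16 for Epha2 and 0.26 ± 0.15 for Unc5b. These covariates overlap with genotype at 6 months and with age in OPA1+/+, and the cause of the sign changes was not tested. The number of members called stayed at 0 under every setting for genotype at 3 months, age in OPA1+/- and the interaction. For genotype at 6 months it was 1 with DESeq2 (Ephb3), 1 with no filter on low counts (Ephb6) and 0 to 1 when leaving out each library. For genotype averaged over ages it was 1 with DESeq2 size factors, 4 with DESeq2, 2 with limma-voom, 4 with no filter, 1 with genes filtered at a mean of 1 CPM, and 0 to 2 when leaving out each library. For age in OPA1+/+ it was 1 with DESeq2 and 1 with no filter (Plxna2). With the replicate number as a block, 2 members were called for genotype averaged over ages (Ephb6, adjusted p = 0.0421, and Nrp1, adjusted p = 0.0387) and 0 elsewhere. Correlations of deviations between libraries of the same number ran from -0.15 to 0.24 over the comparisons, so the numbers were not taken as pairs. The number of all genes called ran over settings from 0 to 45 for genotype at 3 months (1 in the reported fit), 0 to 191 at 6 months (51), 0 to 314 averaged (125), 0 to 168 for age in OPA1+/+ (8), 1 to 83 for age in OPA1+/- (13) and 0 to 20 for the interaction (0). The compared groups alone do not define the average or the interaction, so that setting gave them no value. For 12 fold changes of genes outside the members, 75 of 284 values lost their call and none of the 284 changed sign. Groups of 3 or 4 libraries and scarce members such as Epha7, with 103 counts in all, limit the precision.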
